A study of Mus musculus with 6 samples.

Results

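The genes described here are 7 of the 19938 genes measured with a single-symbol probeset, namely Mecom, Prdm16, Mllt3, Hlf, Mycn, Angpt1 and Tek. They comprise 5 nuclear regulators of haematopoietic stem cell maintenance and the ligand and receptor of the angiopoietin axis. The members were chosen by name with their differences between HLX and control vector already known, so those differences are given as a description and carry no test. Each gene is represented by its brightest probeset, by mean over all 6 arrays. All 7 genes were found.

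The samples were bone marrow cells of young adult wild-type FVB/nJ mice, sorted as negative for lineage markers and positive for Kit and Sca-1, a fraction that holds stem cells and multipotent progenitors. Control cells (3 arrays) received the lentivirus pCAD-IRES-GFP and HLX cells (3 arrays) a lentivirus that in addition carries mouse HLX, a homeobox transcription factor. Both groups were cultured for 2 days in IMDM with fetal bovine serum and the mouse cytokines SCF, IL-6 and IL-3, with 8 µg/ml polybrene, before GFP-positive cells were sorted. Replicates are numbered 1 to 3 in each group, and nothing in the labels says whether they came from separate mice or cultures, so spreads and p-values refer to these samples and may be partly technical.

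Stem cells persist by combining self-renewal with restraint of division and differentiation. Mecom and Prdm16 encode related zinc finger proteins with a PR domain that act through chromatin. Mllt3 encodes a YEATS domain reader of acylated histones found in transcription elongation complexes, Hlf a PAR-bZIP factor linked to quiescence, and Mycn a MYC paralogue. Angpt1 is the secreted agonist of Tek, also called Tie2, a receptor tyrosine kinase of stem cells and endothelium that is associated with stem cell quiescence in the marrow niche.

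Promoter sequence was examined first for Mecom and Prdm16, because these paralogues differed in their values and because Mecom has 2 annotated starts and 2 probesets. RefSeq windows of 300 bases on GRCm38.p6, from 250 bases before an annotated start to 50 after it, were found for 6 of the 7 members, 8 windows in all. No window was listed for Angpt1. The 2 Mecom windows lie on the minus strand with their starts 496555 bases apart. The upstream start is known to give the long MDS1-EVI1 form with the PR domain, the downstream one the shorter EVI1 form. The following 2 windows, printed 5′ to 3′ on the minus strand, are the upstream Mecom window at chr3:30509710-30510009 and the Prdm16 window at chr4:154636824-154637123. Capitals mark the longest run of bases that they share.
Mecom, upstream start: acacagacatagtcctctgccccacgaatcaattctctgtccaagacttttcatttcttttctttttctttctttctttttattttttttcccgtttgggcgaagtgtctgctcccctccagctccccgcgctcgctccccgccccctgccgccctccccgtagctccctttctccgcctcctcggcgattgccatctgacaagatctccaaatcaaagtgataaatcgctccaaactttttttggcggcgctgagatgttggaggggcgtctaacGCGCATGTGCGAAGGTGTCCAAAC
Prdm16: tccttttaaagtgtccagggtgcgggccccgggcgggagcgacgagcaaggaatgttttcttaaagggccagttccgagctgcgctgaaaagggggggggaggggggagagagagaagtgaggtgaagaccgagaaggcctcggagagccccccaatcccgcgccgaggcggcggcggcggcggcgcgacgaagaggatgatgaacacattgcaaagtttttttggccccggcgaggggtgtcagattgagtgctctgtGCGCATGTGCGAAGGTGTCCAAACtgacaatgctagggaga

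The shared run is 24 bases long within these windows. It begins at base 27 after the annotated start in Mecom and at base 10 after it in Prdm16, and it ends at the last base of the Mecom window, so its length is limited by the window and the shared stretch may be longer. Of 32544 distinct windows of this length only these 2 held it on either strand. The downstream Mecom window, at chr3:30013155-30013454 on the minus strand, is shown for the homeodomain core TAAT, the letters that many homeobox proteins recognise. Capitals mark its single match.
Mecom, downstream start: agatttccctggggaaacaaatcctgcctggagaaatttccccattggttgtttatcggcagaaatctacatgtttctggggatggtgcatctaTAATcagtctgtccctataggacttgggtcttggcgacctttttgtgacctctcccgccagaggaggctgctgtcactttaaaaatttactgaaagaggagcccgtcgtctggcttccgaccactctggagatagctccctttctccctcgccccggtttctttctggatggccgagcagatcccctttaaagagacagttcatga

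Read on both strands, TAAT was present in 3 of the 8 windows, 1 each of Mecom, Mllt3 and Mycn, whereas 57.9% of all windows held it. The Mllt3 match was in its downstream window at chr4:87806274-87806573, and the Mycn window at chr12:12941787-12942086 held 2 overlapping matches, as TAATAAT. The GATA site AGATAA, present in 11.2% of all windows, was found in 1 window, that of Tek at chr4:94739039-94739338. The E-box CACGTG (7.17% of all windows), the D-box core TTANNTAA (5.98%), which PAR-bZIP proteins such as Hlf can bind, and the ETS core GGAAGT (23.7%) were found in 0 of the 8. These matches describe letters in a short window and carry no statement about binding.

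The arrays were alike in distribution, with median log2 levels of 6.32 to 6.40 and a mean correlation of each array with the other 5 of 0.982 to 0.985 over genes. Hlx stood at log2 levels of 6.99, 7.29 and 7.62 in control replicates 1 to 3 and at 10.75, 9.74 and 10.28 in HLX replicates 1 to 3, so HLX replicate 1 had the highest and HLX replicate 2 the lowest signal of the HLX arrays. Of 8 measured markers of the sorted stem and progenitor cells, 7 lay above the median of all probesets, as did 11050 of the 19938 genes. Kit was at a log2 level of 9.20 to 9.59 and Cd34 at 10.72 to 11.36 over the 6 arrays. Slamf1 lay under the median, at a mean of 5.23. Of these 8 markers, 7 had a lower mean with HLX, against 52.5% of all genes, and Kit a higher one, at a median log2 difference of -0.087. Their summed log2 level was 67.9 to 69.4 with control and 66.9 to 68.4 with HLX. Flt3, a receptor of multipotent progenitors, had the lowest difference (-0.68) and was at 9.12, 9.21 and 9.29 in control replicates 1 to 3 and 8.81, 8.57 and 8.19 in HLX replicates 1 to 3, with no overlap. The part of these markers in the members' differences was not tested. Ly6a, which encodes Sca-1, was not among the single-symbol genes. Control replicate 1 stood apart in some mast cell and basophil markers. Cpa3 was at 7.47 and Gzmb at 7.66 there, against at most 5.10 and 5.60 on the other 5 arrays. The summed log2 level of the 7 measured markers was 41.5 there against 34.2 to 35.9 elsewhere. Ms4a2, Mcpt4 and Prss34 were not raised there, and 0 of the 7 had a mean above the median of all probesets. The sums of megakaryocyte, B lymphoid and stem and progenitor markers were also highest on control replicate 1, at 55.4, 31.8 and 69.4. That array was also the highest of the 6 for 5 of the 7 members, and each member is therefore also given without it below. In sorted cells measured in bulk, fewer cells of one kind and less RNA per cell cannot be told apart.

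Of the 7 genes, 6 had a lower mean with HLX, and 4 of them, Angpt1, Mecom, Mllt3 and Mycn, had every HLX array below every control array. Among all 19938 genes 4.85% had groups that did not overlap with HLX lower, and 52.5% had a lower mean. Since the members were chosen on this contrast, nothing is read from their share. Their median log2 difference was -0.40, against -0.0078 over all genes. limma called 0 genes at an adjusted p under 0.05, which is 0% of those tested, and 958 genes, 4.80%, had an unadjusted p under 0.05. Hlx itself, 7.75-fold higher with the HLX vector, was among the genes not called. A gene that was not called is therefore not shown to be unchanged.

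**Figure D1:**
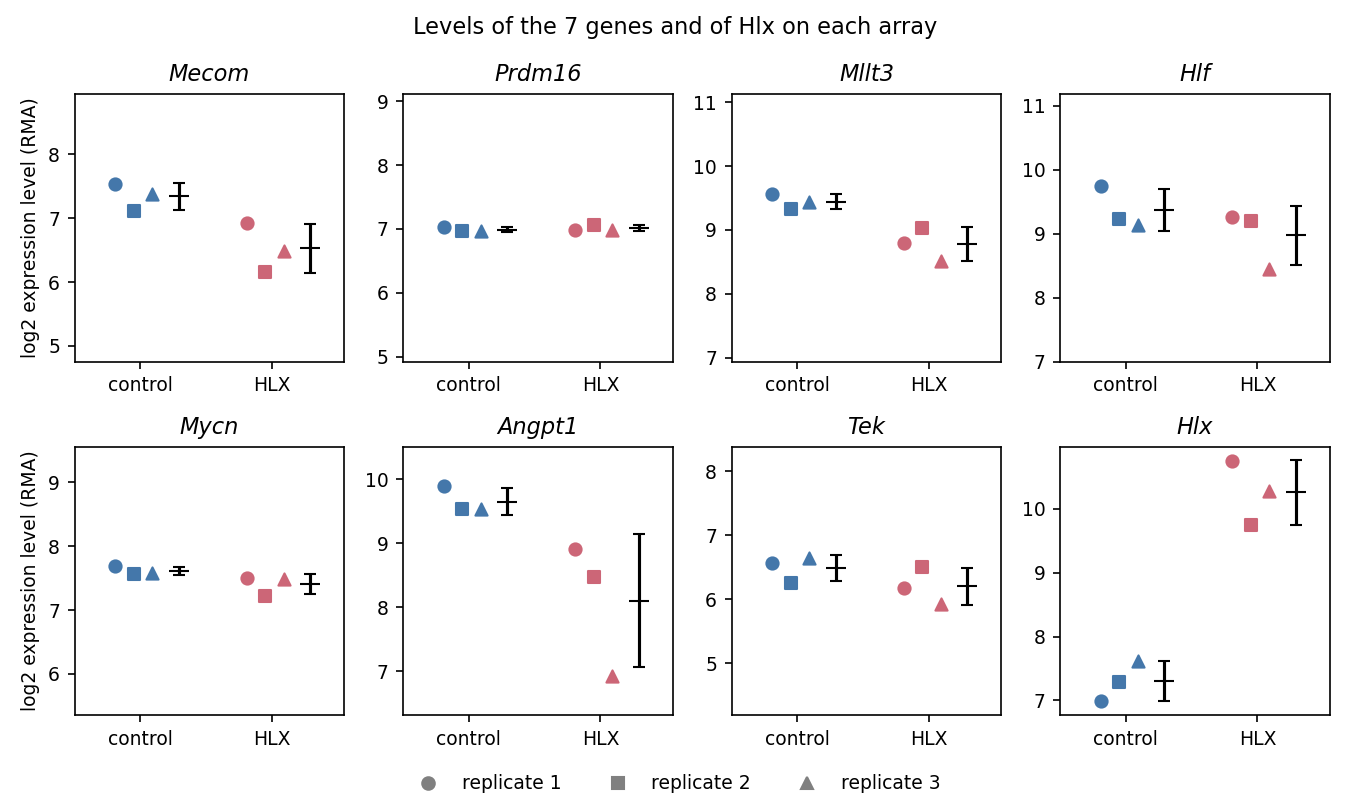
Log2 expression levels (RMA) of Mecom, Prdm16, Mllt3, Hlf, Mycn, Angpt1, Tek and Hlx on each array, with symbols for replicates 1 to 3 and bars for the mean and SD (n = 3); every panel spans the same log2 range. The HLX arrays lie below all control arrays for Mecom, Mllt3, Mycn and Angpt1, and Angpt1 on HLX replicate 3, at 6.93, lies far below the other 2 HLX arrays.

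Angpt1, the agonist of Tek, showed the largest difference of the 7 and the second lowest of all genes, with 1 gene lower. Its log2 level was 9.89, 9.53 and 9.53 in control replicates 1 to 3 and 8.91, 8.47 and 6.93 in HLX replicates 1 to 3. Control arrays spanned 9.53 to 9.89, all 3 HLX arrays lay below them, and HLX replicate 3 stood well below the other 2. The means were 9.65 ± 0.20 and 8.11 ± 1.04 (SD, n = 3 each), a log2 difference of -1.54 ± 0.61 (SE from the SDs of the groups), or 2.92-fold lower with HLX. The gap between the lowest control and the highest HLX array was 0.62 log2 units. Single HLX arrays were 1.67-fold, 2.27-fold and 6.58-fold below the control mean. An SD as large as that of Angpt1 was found in only 0.291% of genes among HLX arrays and in 26.4% among control arrays. Without HLX replicate 3 the log2 difference was -0.96, a 1.94-fold lower level, and without control replicate 1 it was -1.43.

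Tek, the receptor, did not separate the groups. It stood at log2 levels of 6.56, 6.26 and 6.65 in control replicates 1 to 3 and 6.18, 6.50 and 5.92 in HLX replicates 1 to 3. Of the HLX arrays, replicates 1 and 3 lay below every control array, and replicate 2 lay inside the control range. The means were 6.49 ± 0.21 and 6.20 ± 0.29 (SD, n = 3 each), a log2 difference of -0.29 ± 0.20 (SE). Without HLX replicate 3 it was -0.15, without HLX replicate 2 it was -0.44 and without control replicate 1 it was -0.25. Tek was the one member whose mean over all arrays lay under the median of all probesets, 6.36.

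Mecom, which represses and activates transcription with partner chromatin proteins and is needed for stem cell maintenance, was lower with HLX in both its probesets. The brighter one was at log2 levels of 7.54, 7.11 and 7.37 in control replicates 1 to 3 and 6.93, 6.16 and 6.49 in HLX replicates 1 to 3, with means of 7.34 ± 0.22 and 6.52 ± 0.39 (SD, n = 3 each). No HLX array reached the control range, although HLX replicate 1 came within 0.17 log2 units of the lowest control. The log2 difference was -0.81 ± 0.26 (SE), or 1.76-fold lower, and 42 genes had a lower difference. Without control replicate 1 it was -0.71.

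The dimmer Mecom probeset was at 6.73, 6.72 and 6.76 in control replicates 1 to 3 and 6.12, 6.22 and 6.34 in HLX replicates 1 to 3. Its means were 6.73 ± 0.02 and 6.23 ± 0.11 (SD, n = 3 each), a log2 difference of -0.51 ± 0.07 (SE), or 1.42-fold lower, with a gap of 0.38 log2 units between the groups. Thus the groups parted in both, while the order of the HLX arrays differed, with replicate 2 lowest in the brighter probeset and replicate 1 in the dimmer. The annotation pairs the brighter probeset with 7 transcript records and the dimmer one with 3, of which 1 is shared, and the labels and files do not place either relative to the 2 starts printed above. Mecom was the only member with more than 1 single-symbol probeset.

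**Figure D2:**
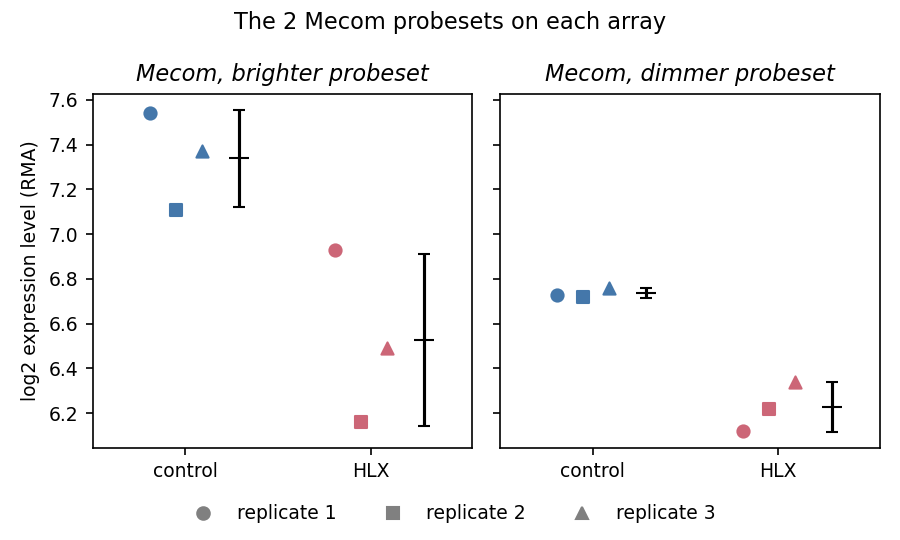
Log2 expression levels (RMA) of the brighter and the dimmer Mecom probeset on each array, with symbols for replicates 1 to 3 and bars for the mean and SD (n = 3). In both probesets the 3 HLX arrays lie below the 3 control arrays, and the control arrays of the dimmer probeset span 6.72 to 6.76.

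Prdm16, the PR-domain paralogue of Mecom and likewise a factor of stem cell maintenance, did not show the same difference. Its log2 level was 7.03, 6.97 and 6.97 in control replicates 1 to 3 and 6.98, 7.07 and 6.99 in HLX replicates 1 to 3. The groups overlapped, and the means were 6.99 ± 0.03 and 7.01 ± 0.05 (SD, n = 3 each), a log2 difference of 0.02 ± 0.03 (SE). Without HLX replicate 2 it was -0.01, so its sign rests on that array, and without control replicate 1 it was 0.04. The spread was small on all arrays, with an SD at least as large in 93.5% of genes among control arrays and in 91.5% among HLX arrays. Without detection calls, a steady transcript and one that was not detected cannot be told apart for this probeset.

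Mllt3, the elongation-complex reader of histone acylation, was at log2 levels of 9.56, 9.33 and 9.44 in control replicates 1 to 3 and 8.80, 9.03 and 8.51 in HLX replicates 1 to 3. All HLX arrays were lower than all control arrays, by at least 0.30 log2 units. The means were 9.44 ± 0.12 and 8.78 ± 0.26 (SD, n = 3 each), a log2 difference of -0.67 ± 0.17 (SE), or 1.59-fold lower. Leaving out any 1 array kept the log2 difference between -0.79 and -0.53, and without control replicate 1 it was -0.61.

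Hlf, the PAR-bZIP factor, was at log2 levels of 9.74, 9.23 and 9.14 in control replicates 1 to 3 and 9.27, 9.20 and 8.45 in HLX replicates 1 to 3. HLX replicates 1 and 2 lay inside the control range and only HLX replicate 3 lay below it, at 1.89-fold under the control mean. The means were 9.37 ± 0.32 and 8.97 ± 0.45 (SD, n = 3 each), a log2 difference of -0.40 ± 0.32 (SE). Without HLX replicate 3 the log2 difference was -0.14 and without control replicate 1 it was -0.21.

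Mycn, a MYC paralogue that supports stem cell survival and growth together with Myc, was at log2 levels of 7.69, 7.57 and 7.58 in control replicates 1 to 3 and 7.50, 7.22 and 7.49 in HLX replicates 1 to 3. The groups did not overlap, with a gap of 0.07 log2 units. The means were 7.61 ± 0.07 and 7.40 ± 0.16 (SD, n = 3 each), a log2 difference of -0.21 ± 0.10 (SE), or 1.16-fold lower. Without HLX replicate 2 it was -0.12, and without control replicate 1 it was -0.17.

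**Figure D3:**
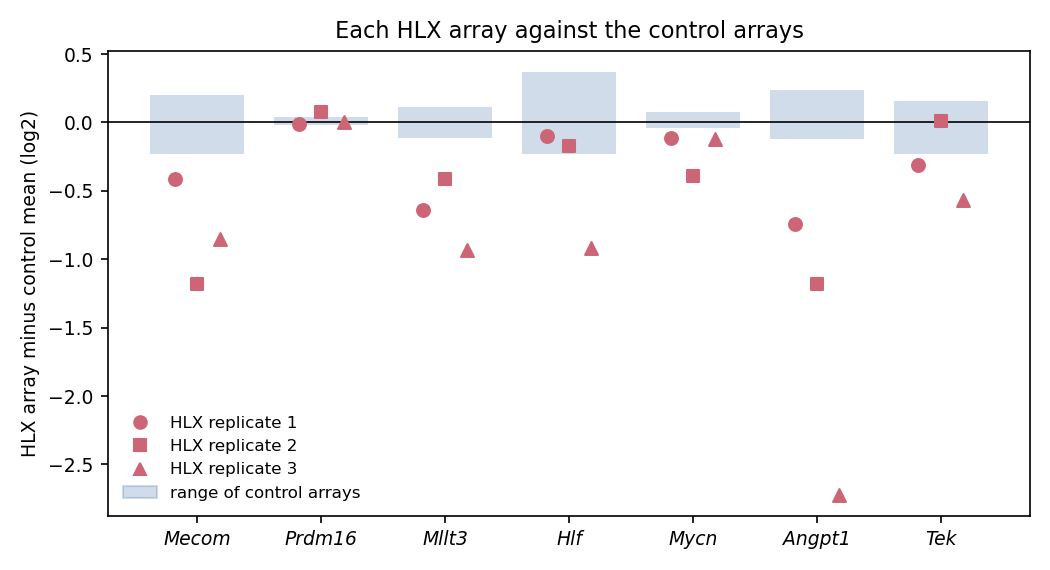
Each HLX array minus the mean of the 3 control arrays, in log2 units, for the 7 genes; symbols stand for HLX replicates 1 to 3 and shaded boxes for the range of the control arrays around their mean. HLX replicate 3 is the lowest point for Mllt3, Hlf, Angpt1 and Tek, and HLX replicate 2 for Mecom and Mycn.

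The members thus did not share one order of arrays. HLX replicate 3 was the lowest of the 6 arrays for 4 genes (Mllt3, Hlf, Angpt1 and Tek), HLX replicate 2 for 2 genes (Mecom and Mycn) and control replicate 2 for Prdm16. HLX replicate 1, which had the highest Hlx signal, was the lowest array for 0 members by their brightest probesets. It was the lowest for the dimmer Mecom probeset, at 6.12. A relation of the members to the Hlx signal was not tested. Markers of granulocytes and monocytes differed among the HLX arrays, and not all in 1 direction. Csf1r, the receptor of macrophage colony-stimulating factor, was at log2 levels of 6.28 to 6.48 on the control arrays and at 6.49, 7.80 and 8.92 in HLX replicates 1 to 3, and Cd14 was at 8.55 in HLX replicate 3 against 6.50 to 7.60 on the other arrays. Itgam, an integrin gene of myeloid cells, was higher on all HLX arrays but ran the other way among them, at 7.24, 6.91 and 6.72 in HLX replicates 1 to 3 against 5.72 to 6.49 with control. Mpo, the gene of the granule enzyme myeloperoxidase, had a lower mean with HLX (log2 difference -1.16), at 8.46, 9.41 and 9.32 in control replicates 1 to 3 and 7.37, 8.70 and 7.64 in HLX replicates 1 to 3. The summed log2 level of the 8 measured markers of these cells was 50.8 to 52.5 with control and 51.6 to 56.5 with HLX, and 6 of the 8 had a higher mean with HLX. Their part in the differences of the members was not tested.

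By likeness of pattern, Pearson r of log2 levels over the 6 arrays was taken against 2457 genes whose SD over the arrays was at least 0.3. It is a description, and its points include the difference between vectors. For Angpt1 the most alike were Rasa2, a RAS GTPase-activating protein, and Serpinb1a, an inhibitor of granule proteases, both at r = 0.993. Serpinb1a stood at 8.37, 8.01 and 8.12 in control replicates 1 to 3 and at 7.56, 7.32 and 6.48 in HLX replicates 1 to 3, also lowest in HLX replicate 3. For Tek they were Endod1 (r = 0.996) and Emcn (r = 0.981), the gene of the sialomucin endomucin of stem cells and endothelium. Emcn stood at 6.30, 5.70 and 6.47 in control replicates 1 to 3 and at 5.13, 6.23 and 4.79 in HLX replicates 1 to 3, and so shared with Tek the low control replicate 2 and the high HLX replicate 2.

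Endothelial markers were examined beside Tek, which endothelial cells also express. The summed log2 level of the 8 measured markers was 54.2 to 54.8 with control and 52.4 to 53.9 with HLX. Of the 8, 7 had a lower mean with HLX, against 52.5% of all genes, at a median log2 difference of -0.051. Emcn (-0.78) and Pecam1 (-0.34), both also expressed by stem cells, had the lowest log2 differences, and for Pecam1 the groups did not overlap. Cdh5, the gene of VE-cadherin, was at 5.71 to 6.01 with control and 5.75 to 5.90 with HLX, and Kdr, the gene of a VEGF receptor, at 5.31 to 5.61 and 5.33 to 5.44. Both lay under the median of all probesets, whereas 5 of the 8 markers lay above it, among them Pecam1 and Tie1. Neither Cdh5 nor Kdr had HLX arrays below the control range. The part of endothelial RNA in the Tek values was not tested.

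**Figure D4:**
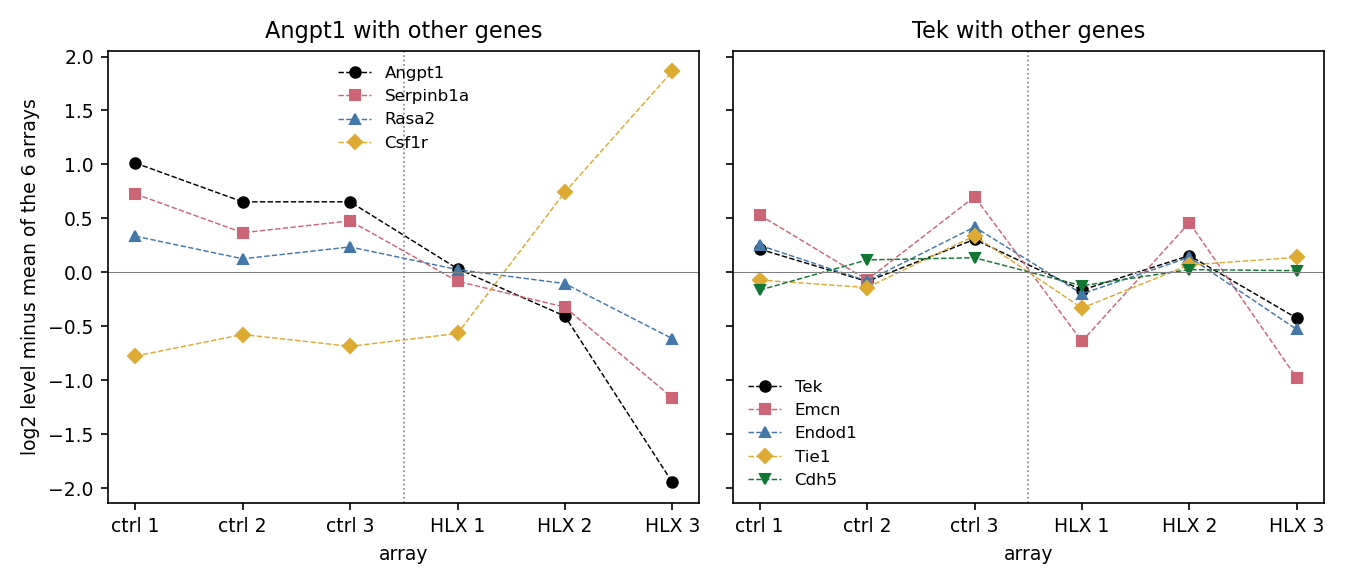
Log2 level minus each gene's mean over the 6 arrays, for Angpt1 with Serpinb1a, Rasa2 and Csf1r (left) and for Tek with Emcn, Endod1, Tie1 and Cdh5 (right); dashed lines only join the symbols of a gene, and replicates have no order. Angpt1, Serpinb1a and Rasa2 are lowest and Csf1r is highest on HLX replicate 3, and Tek, Emcn and Endod1 are low on control replicate 2 and on HLX replicates 1 and 3. Csf1r was drawn as a marker and not by likeness, and granulocyte and monocyte markers did not all share its order.

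For the nuclear regulators the most alike genes were as follows. Mecom resembled Gimap1 (r = 0.983) and Laptm4b (r = 0.968), and Mllt3 resembled Clnk (r = 0.989), an adaptor of immunoreceptor signalling, and Layn (r = 0.981). Hlf resembled Gphn (r = 0.994) and Snx25 (r = 0.988), each highest on control replicate 1 and lowest on HLX replicate 3. Mycn resembled Mmut (r = 0.994), the mitochondrial methylmalonyl-CoA mutase, and Med30 (r = 0.984), a Mediator subunit, each lowest on HLX replicate 2. Prdm16 resembled Zfp971 (r = 0.975) and Spats1 (r = 0.968), but its own SD over the 6 arrays was 0.04 log2 units.

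Genes that work with the 7 or are related to them were followed in 8 lists, which held 154 measured genes without the members. limma called 0 of them at an adjusted p under 0.05, in a fit that did not call Hlx either. Of the 154, 5, or 3.25%, had an unadjusted p under 0.05 (3 higher and 2 lower), against 4.80% of all genes. Their median log2 difference was -0.0062, close to that of all genes. The groups did not overlap with HLX lower in 4 of them (2.60%) and with HLX higher in 5 (3.25%), against 4.85% and 4.34% of all genes. The count of 5 moved with the arrays used, to 10 without control replicate 1, 2 without control replicate 2, 12 without HLX replicate 1 and 3 without HLX replicate 3.

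**Figure D5:**
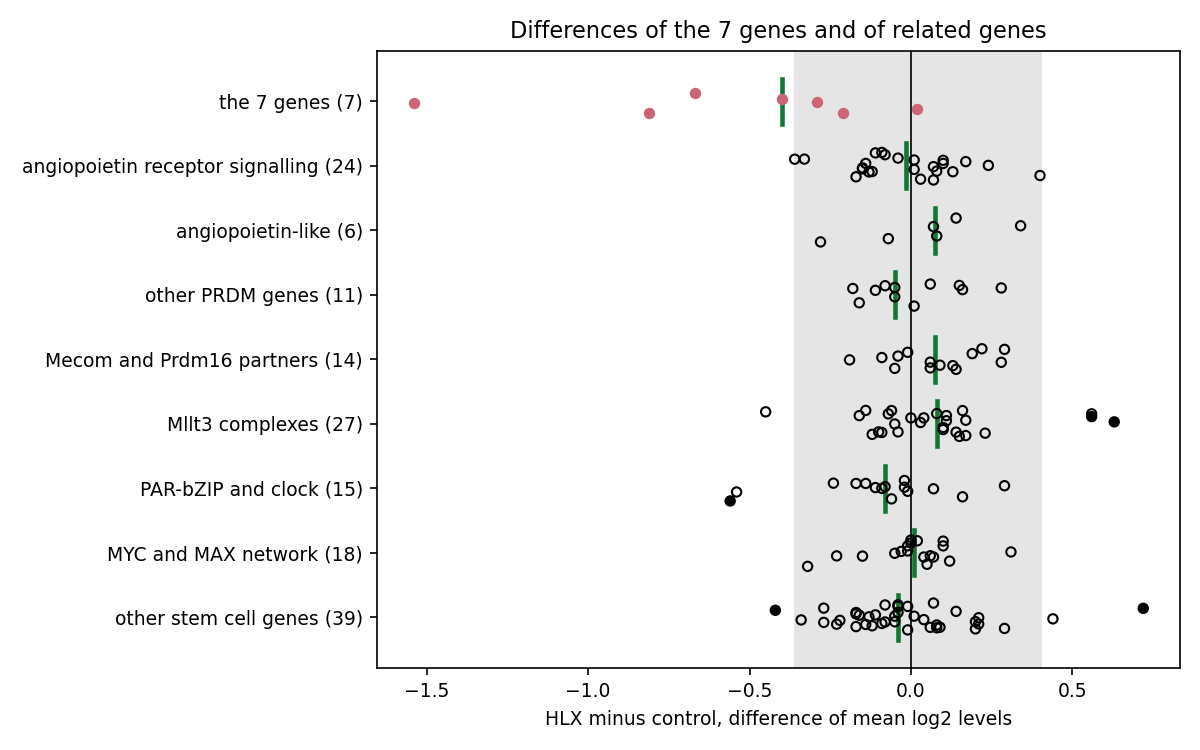
Difference of mean log2 levels, HLX minus control, for the 7 genes (top row) and for each measured gene of the 8 lists, with the number of genes in parentheses; green bars are medians, filled black circles are listed genes at an unadjusted p under 0.05 from limma, and the grey band holds the middle 95% of all genes, from -0.36 to 0.41. The list medians lie between -0.081 and 0.080, and the top row was chosen on this difference.

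In the angiopoietin receptor list, 0 of 24 genes had an unadjusted p under 0.05, and 12 had a higher and 12 a lower mean (median log2 difference -0.015). The smallest p were those of Dok2, an adaptor that binds the activated receptor (log2 difference 0.40 ± 0.19, moderated SE), and Stat5b, a signal transducer (-0.36 ± 0.19). The groups overlapped for the other ligands. Angpt2, a context-dependent antagonist of Tek, was at 6.11 ± 0.07 with control and 6.35 ± 0.37 with HLX, and Angpt4 at 5.95 ± 0.10 and 5.80 ± 0.09 (SD, n = 3 each). Tie1, the co-receptor, was at 7.42 ± 0.26 and 7.34 ± 0.25, and Ptprb, the phosphatase that acts on Tek, at 5.66 ± 0.09 and 5.73 ± 0.09. These 4 are named for their role and not by their values. Of the 6 measured angiopoietin-like and related receptor genes, 0 had an unadjusted p under 0.05 from limma, and the nearest were Pirb (-0.28 ± 0.17) and Angptl7 (0.34 ± 0.25).

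Among the 11 other measured PRDM genes, 0 had an unadjusted p under 0.05 from limma. The nearest were Prdm9, a meiotic histone methyltransferase (log2 difference 0.28 ± 0.12), and Prdm14, a factor of pluripotent cells (-0.18 ± 0.12). Of 14 measured chromatin partners of Mecom and Prdm16, 0 had an unadjusted p under 0.05, and the nearest were the DNA methyltransferase gene Dnmt3a (0.29 ± 0.14), whose groups did not overlap, and the acetyltransferase gene Kat2b (0.28 ± 0.14). The corepressor genes Ctbp1 and Ctbp2, whose products bind Mecom, were at log2 differences of 0.13 and -0.05.

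A list of 27 genes held the elongation and H3K79 methylation complexes to which Mllt3 belongs, and related chromatin genes. Of these 27, 2 had an unadjusted p under 0.05 from limma and both were higher with HLX, while 0 passed the adjusted threshold. Ell2, an elongation factor, was at 8.54 ± 0.29 with control and 9.10 ± 0.34 with HLX (log2 difference 0.56 ± 0.21, moderated SE, n = 3, adjusted p from limma 0.992). Cdk9, the kinase of the positive elongation factor, was at 8.29 ± 0.51 and 8.91 ± 0.21 (0.63 ± 0.25, adjusted p from limma 1.0), and Ccnt1, a cyclin partner of Cdk9, at 9.07 ± 0.46 and 8.62 ± 0.18. Cdk9 and Ccnt1 had groups that did not overlap, in opposite directions. The paralogue Mllt1 had a log2 difference of 0.16 and the methyltransferase gene Dot1l one of 0.17.

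Of 15 PAR-bZIP and circadian genes, 12 had a lower mean, against 52.5% of all genes, at a median log2 difference of -0.081. Of the 15, 1 had an unadjusted p under 0.05 from limma. That gene, Arntl, which encodes the clock activator BMAL1, was at log2 levels of 7.14 ± 0.43 with control and 6.58 ± 0.21 with HLX (log2 difference -0.56 ± 0.22, n = 3, adjusted p from limma 1.0), and its groups overlapped. Per2, a clock repressor, followed (-0.24 ± 0.13). The groups also overlapped for the paralogues of Hlf, with Dbp at 7.58 ± 0.09 and 7.51 ± 0.23 and Tef at 6.70 ± 0.07 and 6.68 ± 0.19 (SD, n = 3 each). Nfil3, a repressor at the same DNA site, stood at 8.65, 8.35 and 8.43 in control replicates 1 to 3 and at 8.73, 7.68 and 7.40 in HLX replicates 1 to 3, so HLX replicates 2 and 3 lay below all control arrays and replicate 1 above them.

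In the MYC and MAX network, 0 of 18 genes had an unadjusted p under 0.05 from limma, and the nearest were the MAX partner Mxd4 (log2 difference -0.32 ± 0.20) and Skp2, a ubiquitin ligase subunit (0.31 ± 0.21). Myc itself was at 11.01 ± 0.11 in both groups, and Mycl at 6.14 ± 0.11 with control and 6.13 ± 0.21 with HLX (SD, n = 3 each).

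Among 39 other genes of stem cell identity and retention, 24 had a lower mean with HLX, against 52.5% of all genes, at a median log2 difference of -0.044. Hoxb5, a homeobox gene of long-term stem cells, was lower (log2 difference -0.42 ± 0.13, moderated SE, n = 3) and the cytokine gene Ltb higher (0.72 ± 0.24), each with an adjusted p from limma of 0.932. These were the 2 genes of the list at an unadjusted p under 0.05. Erg and Tal1 were lower on all HLX arrays and Lyl1 higher, with log2 differences of -0.23, -0.11 and 0.21, and none of these 3 had an unadjusted p under 0.05.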

How the data were processed

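Expression of sorted mouse bone marrow progenitors was measured on 6 Affymetrix arrays. The authors deposited RMA values on the log2 scale, 1 per probeset. The submitters' processing notes name RMA and the Affymetrix Power Tools. RMA normalizes between arrays and compresses weak signals. Raw scanner data were not used, so no detection calls are given.

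Of 35556 probesets, 21789 had 1 gene symbol, 1621 several and 12146 none listed here. The brightest single-symbol probeset per gene, by mean over all arrays, gave 19938 genes, with no filter on dim ones. HLX was compared with control by limma 3.58.1 in R 4.3.3 (lmFit and eBayes, 2-sided, Benjamini-Hochberg over all genes, threshold 0.05, 4 residual degrees of freedom, prior 3.32), and the code was tested on simulated data. The members and lists were chosen with earlier results of these data known. For members, differences of group means are given with an SE from the 2 groups' SDs and without a p. Named genes are the members, Hlx, the 2 smallest limma p of each list and the 2 genes most alike each member, leaving out predicted genes, clones, small RNAs and sensory receptors. Others are named for their role, as markers or for groups that did not overlap, and were chosen after their values were seen. Alternatives were a filter on dim genes, 3 normalizations, a trended and robust prior, array weights, a replicate block, averaged probesets and leaving out each array. Promoter windows came from RefSeq (GRCm38.p6). With 3 arrays per group, precision is limited by their number. Figures used matplotlib 3.10.9 in Python 3.11.15.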

Additional observations from a re-analysis of the deposited data

How the results depend on the processing

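Mecom, Mllt3, Mycn and Angpt1 had groups that did not overlap under each of the 3 normalizations, and Mecom also with averaged probesets; the other alternatives leave the array values as they are or drop an array, and could not have made these groups overlap. Tek no longer overlapped without control replicate 2 or HLX replicate 2. These are its lowest control and its highest HLX array, so nothing is read from this. With 1 array left out, the log2 difference ran from -1.95 to -0.96 for Angpt1, from -0.54 to -0.14 for Hlf, from -0.44 to -0.15 for Tek, from -0.25 to -0.12 for Mycn and from -1.02 to -0.63 for Mecom, and the sign changed for Prdm16 without HLX replicate 2 (-0.01). With a trended and robust prior limma called 1 gene, Hlx (adjusted p 0.0377), and 0 genes in every other alternative. Genes at an unadjusted p under 0.05 numbered 606 among the 11050 genes above the median level, where fewer genes were tested. Listed pathway genes at that p numbered 8 with array weights and 9 with the replicate block, and 2 to 12 with 1 array left out. Over all genes the counts also moved, from 958 to 1202 and 1205 in the first 2 settings and to 805 to 1269 with 1 array left out. The cause was not tested. Replicate numbers are shared by the groups, and the labels state no pairing, so arrays were not taken as paired in the main fit. Same-numbered arrays deviated together with r = 0.20, 0.0085 and 0.14 over genes, and differently numbered ones with r from -0.225 to 0.105. These values do not settle whether replicates were paired. With the replicate block 1205 genes had an unadjusted p under 0.05 in limma, against 958 in the main fit, and 0 were called. Tek has no value under the filter on dim genes, which 6 members passed.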
